A study of Mus musculus with 15 samples.

Results

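Elastic fibre and cross-linking genes were followed in mouse hearts with the MAT1 gene floxed for deletion in heart muscle cells. The set held the genes of elastin (Eln), fibrillin-1 (Fbn1), 3 microfibril-associated proteins (Mfap2, Mfap4 and Mfap5), 2 lysyl oxidases (Lox and Loxl1) and 2 fibulins (Fbln1 and Fbln2). Members were the probe sets that the platform annotation assigns to exactly 1 of these symbols. This gave 15 of the 12422 probe sets of the table, for 8 of the 9 genes, where the table names 8251 genes in all. Fbn1 was listed with none and is not analysed here. Mfap2, Fbln2 and Loxl1 each had 1 probe set, and the other 5 genes had 2 to 4.

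The knockout hearts (CKO) carried the αMHC-Cre+/0 transgene with the MAT1F/F genotype. The control hearts came from littermates with the same αMHC-Cre+/0 transgene and the MAT1F/+ genotype, so all animals carried Cre and at least 1 floxed allele. The αMHC promoter drives Cre in cardiomyocytes, and other cells of the heart keep the gene. There were 5 CKO and 3 control arrays at 4 weeks of age, and 4 CKO and 3 control arrays at 2 weeks. Nothing in the labels ties each array to a mouse of its own, so p-values measure the spread between these arrays, which may be technical. Age and genotype are the only factors the labels give.

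An elastic fibre has a core of cross-linked elastin on a scaffold of microfibrils. Fibrillin-1 forms the microfibrils, which MAGP-1 (Mfap2) and MAGP-2 (Mfap5) bind, and fibulins bridge them to elastin and to the basement membrane. Lysyl oxidases oxidise lysine residues of elastin and collagen, which then join into cross-links. In the heart and great vessels, elastin is laid down mainly before and soon after birth, by smooth muscle cells, fibroblasts and valve interstitial cells.

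Promoter sequences are shown for the 3 measured genes that had one in the RefSeq table (GRCm38.p6), because their differences at 4 weeks fell on both sides of the threshold (Fbln2 inside it, Mfap2 just outside, Fbln1 far outside). Each is the 250 bases before the most upstream listed start, on the plus strand, 5′ to 3′. A further start listed for Fbln1 and for Mfap2 is not shown. The windows are chr6:91212514-91212763 for Fbln2, chr15:85205699-85205948 for Fbln1 and chr4:141010174-141010423 for Mfap2. Capitals mark matches on either strand to 5 motifs, namely the TATA box (TATAAA), AP-1 (TGANTCA), SMAD (CAGAC), Sp1 (GGGCGG) and MCAT (CATTCC).
Fbln2: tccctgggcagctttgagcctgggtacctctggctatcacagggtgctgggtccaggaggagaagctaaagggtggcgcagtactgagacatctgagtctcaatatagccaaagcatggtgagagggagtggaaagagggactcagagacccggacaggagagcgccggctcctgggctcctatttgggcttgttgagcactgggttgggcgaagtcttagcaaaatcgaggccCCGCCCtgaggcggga
Fbln1: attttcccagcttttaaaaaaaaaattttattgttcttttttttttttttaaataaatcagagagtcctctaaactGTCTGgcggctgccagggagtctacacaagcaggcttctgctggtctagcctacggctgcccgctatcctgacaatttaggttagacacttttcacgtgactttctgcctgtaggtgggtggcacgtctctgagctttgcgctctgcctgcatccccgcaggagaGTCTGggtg
Mfap2: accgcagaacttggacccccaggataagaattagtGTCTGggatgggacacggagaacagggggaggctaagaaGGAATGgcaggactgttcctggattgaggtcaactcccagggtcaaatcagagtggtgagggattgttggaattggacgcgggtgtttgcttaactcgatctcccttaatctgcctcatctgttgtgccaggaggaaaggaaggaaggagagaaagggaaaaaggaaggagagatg
Fbln2 held 1 Sp1 match, Fbln1 held 2 SMAD matches, and Mfap2 held 1 SMAD and 1 MCAT match. The windows of the further starts also held Sp1 matches, 1 for Fbln1 and 2 for Mfap2, so Sp1 did not set Fbln2 apart. No TATA box or AP-1 match lay in these windows, and the matches did not overlap. Of 32851 promoter windows of this length, 32.7% held the Sp1 motif, 42.2% the SMAD motif, 12.6% the MCAT motif, 12.4% the TATA box and 6.75% the AP-1 motif. The Fbln2 window was 58.8% G and C, the Fbln1 window 46.4% and the Mfap2 window 51.2%, where the median window held 52.4%.

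Values are intensities on the linear scale of the deposited table, whose lowest entry was 0.95 on every array, and they do not compare levels between probe sets. Array medians ran from 173.7 to 216.8. The arrays fell into 2 array sets by their correlation over all probe sets (at least 0.937 within a set and at most 0.924 between sets), which the labels do not mention. At each age, 2 CKO arrays and 1 control array belonged to set 1, the others to set 2. Judged by Xist and Uty, female hearts made up 4 of 5 CKO and 1 of 3 control arrays at 4 weeks. At 2 weeks they made up 1 of 4 CKO and 1 of 3 control arrays. The 2 probe sets of Mnat1, the targeted gene, differed by 0.53 ± 0.47 and -0.03 ± 0.27 (log2, CKO minus control at 4 weeks) and by 0.16 ± 0.49 and -0.47 ± 0.28 at 2 weeks, and none passed the test. No source used here places these probes inside or outside the floxed segment, so they do not check the labels. Heart muscle markers such as Myh6 (mean intensity 10400) and Tnni3 (8203) were bright on every array.

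At 4 weeks, 6 of the 8 measured genes rose in CKO hearts and none fell. Eln, Mfap5, Lox, Loxl1 and Fbln2 were 2.55- to 13.3-fold higher at their brightest probe sets. Mfap4 was higher by an amount that the added constant sets, and Mfap2 and Fbln1 did not pass the test. The fold of Lox, the highest given, also moved with that constant, and the other Lox probe set gave 6.92-fold. Differences are of log2(intensity + 16), given with their standard error, and a gene is called at a limma adjusted p under 0.05 over all 12422 probe sets. By probe set, 9 of 15 were called higher, where 3.86% of all probe sets were, and none lower, where 2.42% of all were. In 10 of 15 every CKO array was above every control array, which held for 8.15% of all. The median difference was 1.90 over the 8 genes and 0.07 over all probe sets. Fibroblast markers were also higher in CKO hearts (7 of 10 called, summed intensity 22800 to 26500, against 13320 to 14440 in control hearts) and their part in the rise was not tested. In whole hearts, a different number of cells of a type and a different amount of RNA per cell cannot be told apart.

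**Figure D1:**
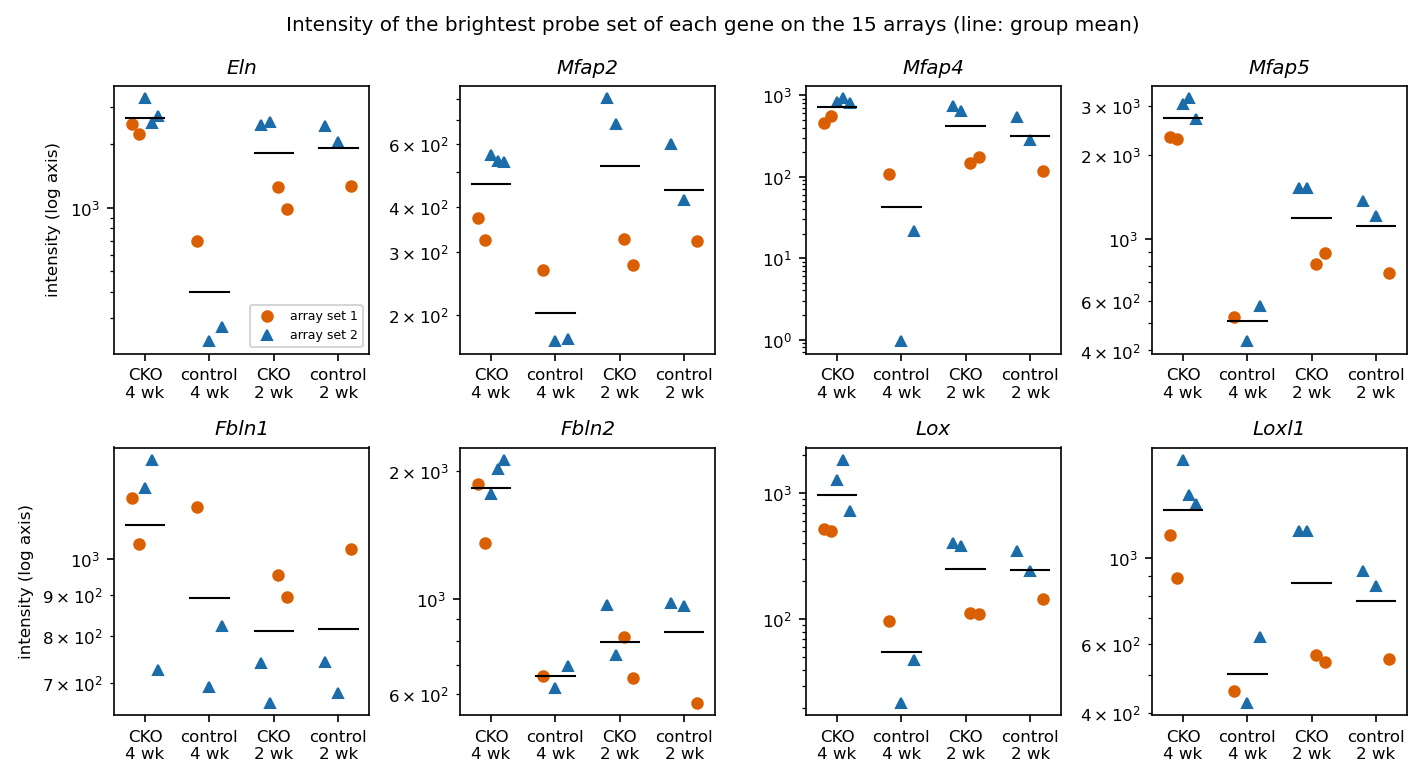
Intensity (log axis) of the brightest probe set of each of the 8 measured genes on the 15 arrays, by group, with circles for array set 1, triangles for array set 2 and a line at the group mean. At 4 weeks all CKO arrays lie above all control arrays in every panel except Fbln1, and at 2 weeks the groups overlap in every panel.

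Eln encodes tropoelastin, the soluble monomer of the fibre core. Its brighter probe set read 2502, 2246, 3307, 2528 and 2709 in CKO hearts at 4 weeks, against 697.9, 233.4 and 273.5 in control hearts. All CKO arrays stood above all control arrays, and the first control array was the highest of its group. The difference was 2.83 ± 0.37, or 7.13-fold (limma adjusted p = 0.000365). The dimmer Eln probe set read 622.0, 576.0, 520.9, 559.9 and 410.1 in CKO hearts, against 367.3, 122.8 and 121.0 in control hearts, and rose by 1.50 ± 0.28 (limma adjusted p = 0.00492). Both Eln probe sets therefore separated the groups, with r = 0.90 between them over the 15 arrays.

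Among the brightest probe sets of the microfibril genes, that of Mfap5 had the smallest error. MAGP-2, the product of Mfap5, is a small glycoprotein of microfibrils. The brighter Mfap5 probe set read 2323, 2269, 3035, 3187 and 2685 in CKO hearts at 4 weeks, against 525.2, 431.2 and 576.2 in control hearts. The difference was 2.36 ± 0.24, or 5.14-fold (limma adjusted p = 5.8e-05). Its other probe set read 343.4, 287.0, 1155, 1313 and 1172 in CKO hearts, against 103.2, 85.5 and 112.5 in control hearts. Here the 3 CKO arrays of set 2 were the high ones, and the 2 of set 1 were far lower although still above the controls. That probe set rose by 2.65 ± 0.58 (limma adjusted p = 0.0132).

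Mfap4, a microfibril-associated glycoprotein with a fibrinogen-like domain, had 1 control array at the lowest value of the table, and its 2 probe sets disagreed. The brighter one read 448.5, 548.8, 822.3, 917.7 and 793.0 in CKO hearts at 4 weeks, against 106.6, 0.95 and 21.3 in control hearts. All CKO arrays were above all control arrays, of which the second read the lowest value. The difference was 4.03 ± 0.65 with 16 added (limma adjusted p = 0.00181), 5.35 with 1 added and 2.93 with 64 added, so no fold is given. It was 3.37 ± 0.68 without control 4 wk replicate 2 (adjusted p = 0.0173). The other Mfap4 probe set was dim, with 33.6, 46.5, 27.2, 23.4 and 21.4 in CKO hearts against 45.6, 11.3 and 25.7 in control hearts, so the groups overlapped (0.15 ± 0.38, adjusted p = 0.955). The 2 probe sets had r = -0.09 over the 15 arrays, and the mean of the dim one lay at percentile 8.51 of the table. The name of the brighter one ends in _f_at, a suffix that the manufacturer gives to probe sets able to bind several related sequences.

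Mfap2 encodes MAGP-1, which binds fibrillin and members of the TGF-beta family. It read 372.6, 323.6, 557.9, 536.9 and 533.2 in CKO hearts at 4 weeks, against 267.4, 169.0 and 171.7 in control hearts. The groups did not overlap, but the nearest arrays of each, both of set 1, were close. The difference of 1.13 ± 0.34 did not pass the test (limma adjusted p = 0.0666), and it did in the fit that blocks on array set (1.17, adjusted p = 0.00235). It also passed with inferred sex added to that block (adjusted p = 0.0063) and with the dimmest 40% of probe sets left out (adjusted p = 0.0498). Quantile normalization (adjusted p = 0.129), median scaling (0.178) and the replicate block (0.184) left it further outside. Within array sets 1 and 2 the difference was 0.36 and 1.58.

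The cross-linking enzymes both rose. Lox read 516.2, 500.6, 1275, 1832 and 713.9 in CKO hearts at 4 weeks, against 96.4, 21.9 and 48.1 in control hearts. The lowest CKO array was thus far above the highest control array. The difference was 3.73 ± 0.54, or 13.3-fold (limma adjusted p = 0.000796), and it was 4.14 with 1 added to the intensity and 2.99 with 64 added. This Lox probe set also has the suffix _f_at, and the other Lox probe set, without it, read 302.0, 246.4, 543.7, 1082 and 604.1 in CKO hearts against 101.1, 37.5 and 44.9 in control hearts. That second set rose by 2.79 ± 0.42 (limma adjusted p = 0.000973), with r = 0.96 between the pair.

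Loxl1 is the lysyl oxidase that mice need to maintain elastic fibres in adult tissue. It read 1140, 888.9, 1781, 1445 and 1374 in CKO hearts at 4 weeks, against 455.8, 425.4 and 627.8 in control hearts. Every CKO array was above every control array, and the difference was 1.35 ± 0.30, or 2.55-fold (limma adjusted p = 0.0135). The call was lost without control 4 wk replicate 2 (1.25 ± 0.35, adjusted p = 0.0868), and under median scaling (1.27 ± 0.37, adjusted p = 0.0663).

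Of the 2 fibulins, Fbln2 passed the test and Fbln1 did not, and the difference between them was not tested. Fbln2, a fibulin of vessel walls and developing valves, read 1861, 1354, 1764, 2014 and 2121 in CKO hearts at 4 weeks, against 660.7, 618.6 and 699.1 in control hearts. Its control arrays were close together and far below the lowest CKO array, with a difference of 1.43 ± 0.20, or 2.69-fold (limma adjusted p = 0.000547). Fbln1, a fibulin of basement membranes and elastic fibres, read 1191, 1042, 1226, 1329 and 725.0 at its brightest probe set in CKO hearts, against 1161, 692.2 and 825.0 in control hearts. These groups overlapped, and the difference was 0.30 ± 0.22 (95% interval -0.17 to 0.78, limma adjusted p = 0.626). The other 3 Fbln1 probe sets differed by 0.40 ± 0.26, 0.34 ± 0.22 and 0.02 ± 0.20, and none passed the test. One of them reached 1570 and 1399 on 2 CKO arrays of set 2 while the other 3 CKO arrays read 859.0, 626.0 and 681.5, against 783.6, 655.7 and 735.6 in control hearts.

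At 4 weeks each called gene had a positive difference in both array sets, with the smaller value in set 1. The difference between the sets was not tested. Judged by Xist and Uty, every set 1 array at 4 weeks was female, and both set 2 control arrays were male. Array set and inferred sex therefore cannot be told apart among the 4-week control arrays. Within set 1 (2 CKO arrays against 1 control array) and set 2 (3 against 2), Eln differed by 1.74 and 3.40, Lox by 2.22 and 4.61, and Mfap4 by 2.06 and 5.09. Loxl1 differed by 1.12 and 1.53, Fbln2 by 1.24 and 1.55, and the brighter Mfap5 probe set by 2.09 and 2.53. The sets lay closer at these 3 probe sets, but the other Mfap5 probe set differed by 1.47 and 3.43. Fbln1 was -0.06 in set 1 and 0.48 in set 2. Blocking on array set gave 10 of 15 probe sets called higher, where 14.5% of all were. With array set and inferred sex as blocks, Eln differed by 2.53 (adjusted p = 1.11e-05), Lox by 3.37 (adjusted p = 6.46e-06) and Loxl1 by 1.27 (adjusted p = 2.78e-05).

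**Figure D2:**
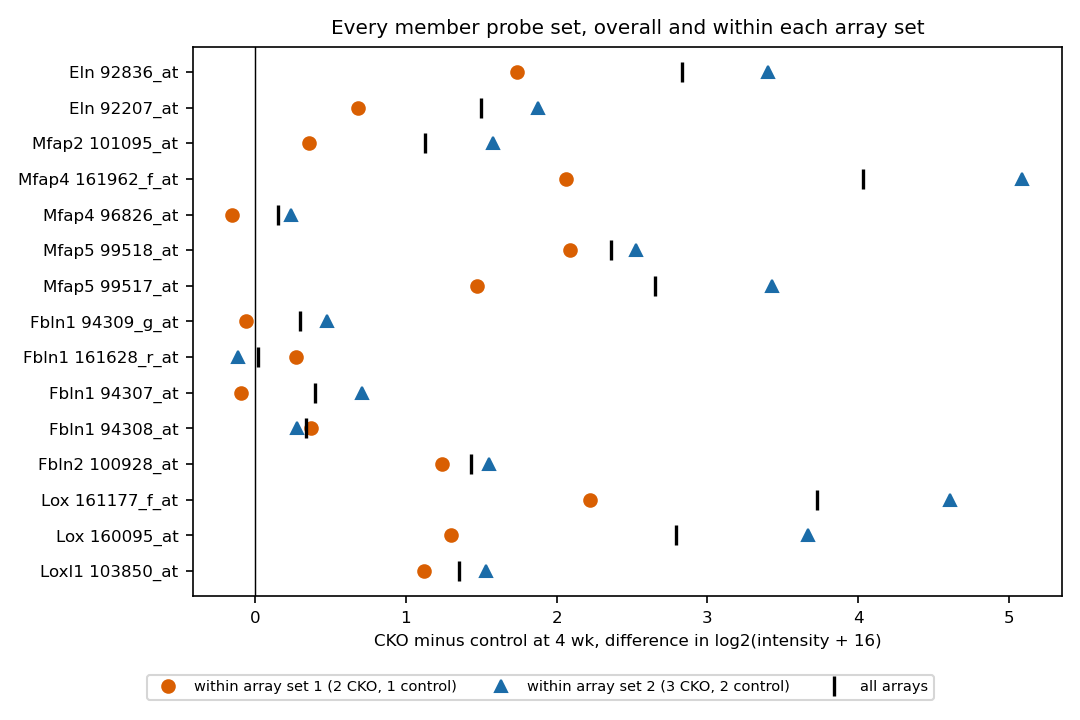
CKO minus control at 4 weeks, as a difference in log2(intensity + 16), for all 15 member probe sets, with circles for the value within array set 1, triangles within array set 2 and a bar for all arrays. The gap between sets is widest for the brighter Mfap4 probe set (2.06 and 5.09), and no Fbln1 or dim Mfap4 point exceeds 0.71.

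At 2 weeks no member was called in either direction, where 0.00805% of all probe sets were called, and no member passed an unadjusted p of 0.05. The groups overlapped for all 15 probe sets, and CKO arrays were all higher for 1.52% of the whole table. Eln read 2458, 2549, 1261 and 990.9 in CKO hearts at 2 weeks, against 2455, 2044 and 1263 in control hearts. In both groups the arrays of set 1 were the low ones. The difference was -0.14 ± 0.38 (95% interval -0.96 to 0.68, limma adjusted p = 1). Lox read 403.6, 383.0, 112.4 and 109.9 in CKO hearts, against 344.3, 243.3 and 145.2 in control hearts, again with set 1 low in both groups (-0.11 ± 0.56). Mfap5 read 1516, 1524, 814.4 and 889.8 in CKO hearts, against 1366, 1209 and 753.9 in control hearts (0.08 ± 0.25, 95% interval -0.46 to 0.62). The intervals of Lox (-1.32 to 1.09) and Mfap4 (-1.14 to 1.78) were wide, so a difference of 1 on the log2 scale lay inside both.

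Mfap4 read 729.8, 630.4, 147.1 and 173.8 in CKO hearts at 2 weeks, against 540.5, 278.0 and 118.4 in control hearts (0.32 ± 0.68). Mfap2 read 803.5, 681.7, 325.5 and 275.9 in CKO hearts, against 598.5, 417.4 and 321.2 in control hearts (0.13 ± 0.35). In both genes every array of set 2 was above every array of set 1. Loxl1 read 1170, 1172, 562.5 and 542.7 in CKO hearts, against 923.9, 846.6 and 549.2 in control hearts (0.09 ± 0.31). Fbln2 read 966.8, 742.2, 817.6 and 654.4 in CKO hearts, against 979.9, 964.8 and 572.0 in control hearts (-0.05 ± 0.20). Fbln2 showed no such split by array set among the CKO arrays, and Fbln1 differed by 0.00 ± 0.23. Blocking on array set also called no member, where 0.0483% of all were called higher, and in that fit Mfap4 differed by 0.43 ± 0.60 and Loxl1 by 0.20 ± 0.17.

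The test of a difference in the CKO effect between ages passed for the brightest probe set of 4 genes. These calls depended on the alternative used. The CKO effect at 4 weeks exceeded that at 2 weeks by 2.98 ± 0.53 for Eln (limma adjusted p = 0.0258), 3.85 ± 0.78 for Lox (adjusted p = 0.0428), 2.28 ± 0.35 for Mfap5 (adjusted p = 0.0105) and 1.48 ± 0.28 for Fbln2 (adjusted p = 0.0334). This was 4 of 15 probe sets, where 0.274% of all were called more positive at 4 weeks. The other probe sets of Eln (1.38 ± 0.41, limma adjusted p = 0.233), Lox (2.67 ± 0.60, adjusted p = 0.0779) and Mfap5 (2.54 ± 0.85, adjusted p = 0.335) did not pass. Mfap4 (3.72 ± 0.94, adjusted p = 0.124) and Loxl1 (1.26 ± 0.43, adjusted p = 0.372) did not pass. When array set was blocked, 9 of 15 probe sets passed, where 3.28% of all did, and these then included Mfap4 (3.65 ± 0.82, adjusted p = 0.015) and Loxl1 (1.20 ± 0.23, adjusted p = 0.00552). Under median scaling none passed, and none of the 15 passed with the replicate number as a block (adjusted p 0.0932 for Eln, 0.0952 for Mfap5, 0.171 for Fbln2 and 0.211 for Lox). Leaving out single arrays left 1 to 7 of the probe sets called. The Mfap5 call held whichever array was left out (adjusted p at most 0.0476), and the Eln call was lost without 6 of the 15 arrays (adjusted p 0.0536 to 0.108). Those 6 were control 4 wk replicates 2 and 3, CKO 4 wk replicate 3, control 2 wk replicates 1 and 2, and CKO 2 wk replicate 3. The Lox call was lost without 11 arrays (adjusted p 0.0508 to 0.171), being kept without control 4 wk replicate 1, CKO 4 wk replicate 2, or CKO 2 wk replicate 1 or 2. The Fbln2 call was also lost without 11 arrays (adjusted p 0.0585 to 0.134), being kept without control 4 wk replicate 1, CKO 4 wk replicate 2, control 2 wk replicate 3 or CKO 2 wk replicate 1.

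**Figure D3:**
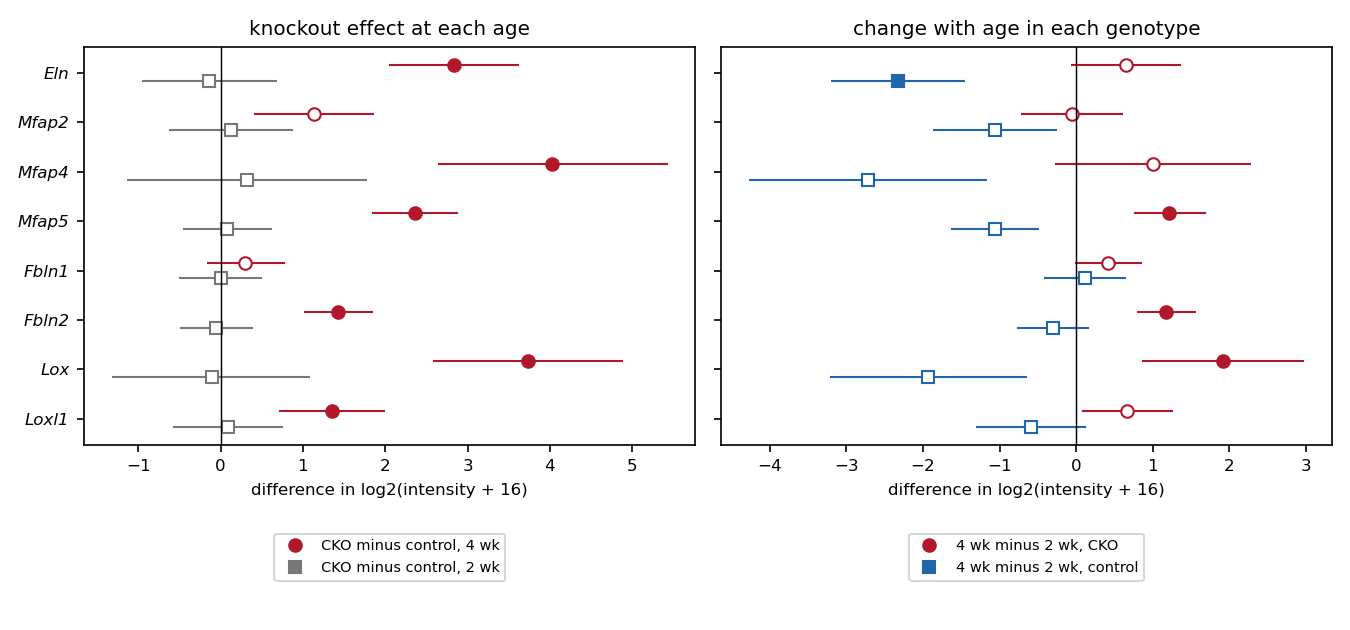
Left, CKO minus control at 4 weeks (red circles) and 2 weeks (grey squares); right, 4 weeks minus 2 weeks in CKO (red circles) and control hearts (blue squares), as differences in log2(intensity + 16) of the brightest probe set with 95% intervals. Filled symbols passed the test: 6 genes at 4 weeks, none at 2 weeks, 3 with age in CKO hearts and Eln alone with age in control hearts.

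Between 2 and 4 weeks the brightest probe set of Eln fell in control hearts, while those of Fbln2, Lox and Mfap5 rose in CKO hearts. These are the same arrays compared along the other axis, so they add no independent test. In control hearts the 8 genes had a median difference of -1.06 between 4 and 2 weeks, against -0.03 for all probe sets, and in CKO hearts it was 0.83, against -0.01. In control hearts Eln fell by 2.33 on the log2 scale (SE 0.41, limma adjusted p = 0.0265), the only member called lower, where 0.0564% of all probe sets were. Its mean intensity was 401.6 ± 257 (SD, n = 3) at 4 weeks and 1921 ± 606 (SD, n = 3) at 2 weeks in control hearts. The Eln call was lost without control 4 wk replicate 2 or 3 or control 2 wk replicate 1 or 2 (adjusted p 0.152 to 0.176) and under median scaling (adjusted p = 0.0578). The dimmer Eln probe set differed by -1.18 (SE 0.32) and did not pass (limma adjusted p = 0.221).

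In control hearts, 7 of 15 probe sets had every 4-week array below every 2-week array, where 4.21% of all did. They were both of Eln, both of Lox, and 1 each of Mfap2, Mfap4 and Mfap5. Differences that did not pass were -2.72 ± 0.73 for Mfap4 (limma adjusted p = 0.221), -1.93 ± 0.60 for Lox (adjusted p = 0.411), -1.06 ± 0.27 for Mfap5 (adjusted p = 0.169) and -1.06 ± 0.38 for Mfap2 (adjusted p = 0.574). When array set was blocked, 6 of 15 probe sets were called lower, where 1.39% of all were, and these 4 genes passed beside Eln (adjusted p 0.00147 to 0.0473). Within sets 1 and 2, Eln differed by -0.84 and -3.07, Mfap4 by -0.13 and -4.01, and Lox by -0.52 and -2.63. Set 1 holds 1 control array at each age, inferred female at 4 weeks and male at 2 weeks. Fbln2 (-0.30 ± 0.22) and Fbln1 (0.12 ± 0.25) did not pass in either fit.

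In CKO hearts, the brightest probe sets of Fbln2, Lox and Mfap5 rose between 2 and 4 weeks. The log2 difference was 1.18 ± 0.18 for Fbln2 (limma adjusted p = 0.0019), 1.22 ± 0.22 for Mfap5 (adjusted p = 0.00646) and 1.92 ± 0.49 for Lox (adjusted p = 0.0496). By probe set 4 of 15 were called higher, where 2.06% of all were, and 7 of 15 in the blocked fit, where 8.52% of all were. Fbln2 averaged 1823 ± 296 (SD, n = 5) at 4 weeks and 795.2 ± 132 (SD, n = 4) at 2 weeks in CKO hearts, with no overlap. Eln averaged 2658 ± 398 (SD, n = 5) at 4 weeks and 1815 ± 804 (SD, n = 4) at 2 weeks, which overlapped (0.65 ± 0.34, adjusted p = 0.496). Mfap2 was -0.06 ± 0.31 and Mfap4 1.00 ± 0.60, neither past the test. The Lox call was just inside the threshold and was lost without 11 of the 15 arrays (adjusted p 0.0513 to 0.16), being kept without control 4 wk replicate 1, CKO 4 wk replicate 1 or 2, or CKO 2 wk replicate 1. It was also lost under quantile normalization (1.91, adjusted p = 0.0575), median scaling (1.92, adjusted p = 0.0907) and a pseudocount of 1 (2.01, adjusted p = 0.065). The second Lox probe set gave 1.69 ± 0.38 (limma adjusted p = 0.0248). The second Mfap5 probe set, whose groups overlapped, did not pass (1.54 ± 0.54, adjusted p = 0.177).

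The genes varied together across arrays, and Fbln1 least so. Over the 15 arrays the 28 pairs of genes had Pearson correlations of -0.08 to 0.97, with a median of 0.82, as a description across arrays that share group and array set. Lox and Mfap5 had r = 0.97, as did Eln and Mfap4. The lowest values all involved Fbln1, from -0.08 with Mfap2 to 0.38 with Fbln2, and the next was 0.50 between Fbln2 and Mfap2. After the mean of each group was removed the median was 0.68, and after the mean of each array set was removed it was 0.85. With array-set means removed, Fbln1 had r = 0.59 with Lox, 0.58 with Fbln2 and 0.13 with Mfap2, the lowest of the 28 pairs. With group means removed, Fbln1 and Fbln2 had r = -0.36. Outside the set, the genes most correlated with the mean of the 8 standardised members, of 5675 candidates, were Col5a2, a chain of collagen V (r = 0.973), Rab31, a small GTPase of membrane traffic (0.97), and Ppp2r5c, a regulatory subunit of protein phosphatase 2A (0.961). They were followed by Fstl1, a secreted glycoprotein (0.957), Litaf, an endosomal membrane protein (0.953), and Col6a1, a chain of collagen VI (0.948). With array-set means removed, Col5a2 (0.98), Ppp2r5c (0.973) and Rab31 (0.969) were again among the top 6, beside Yipf5, Ugdh and Kdelr3.

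Of 9 measured elastic fibre partners of 20 listed, 3 rose at 4 weeks in CKO hearts and none fell, with a median of 0.29. Beside this and the list and marker counts below, 3.86% of all probe sets were called higher at 4 weeks and 2.42% lower. Vcan, the proteoglycan versican, which is abundant in the provisional matrix, rose by 2.97 ± 0.66 (limma adjusted p = 0.0141). Ltbp2, a latent TGF-beta binding protein that associates with fibrillin microfibrils, rose by 1.98 ± 0.31 (adjusted p = 0.00125). Ltbp4, which takes part in elastin assembly, rose by 0.61 ± 0.13 (adjusted p = 0.0127). Glb1, whose locus also yields an elastin-binding splice product, differed by 0.74 ± 0.36 (adjusted p = 0.344), and it passed when array set was blocked (0.78, adjusted p = 0.0406). Fbn2, the fibrillin of early development, differed by 0.21 ± 0.17 (adjusted p = 0.696). At 2 weeks none of the 9 was called.

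Of 6 measured genes of cross-linking and pro-enzyme processing, of 14 listed, 2 rose at 4 weeks and none fell, with a median of 0.49. Pcolce, an enhancer of procollagen C-proteinase, rose by 1.18 ± 0.28 (limma adjusted p = 0.0222), and Plod3, a lysyl hydroxylase and glycosyltransferase of collagens, rose by 0.66 ± 0.16 (adjusted p = 0.022). Bmp1, the proteinase that frees active lysyl oxidase from its precursor, differed by 0.31 ± 0.16 (adjusted p = 0.384). Tgm2, a transglutaminase, differed by 0.76 ± 0.47 (adjusted p = 0.515), and it passed when array set was blocked (0.84, adjusted p = 8.63e-05).

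Of 20 measured proteases and inhibitors that act on elastic fibres, of 21 listed, 5 rose at 4 weeks and none fell, with a median of 0.20. The rises were in 2 metalloproteinase inhibitors, Timp1 (1.76 ± 0.29, limma adjusted p = 0.0019) and Timp2 (1.09 ± 0.14, adjusted p = 0.000416), and 2 cathepsins, Ctsl (0.86 ± 0.15, adjusted p = 0.00264) and Ctsk (0.97 ± 0.25, adjusted p = 0.0346). Mmp7, a matrix metalloproteinase, rose by 0.67 ± 0.17 (adjusted p = 0.0324). Macrophage elastase, Mmp12, differed by -0.21 ± 0.28 and the neutrophil elastase gene Elane by -0.09 ± 0.33, neither past the test. Prtn3, the gene of proteinase 3 of neutrophils, differed by -0.81 ± 0.24 (adjusted p = 0.0688). When array set was blocked, 7 genes of this list were called higher, Ctsd (0.43) and Cst3 (0.53) among them, and 1 lower, Prtn3 (-0.80, adjusted p = 0.0117). In that fit 14.5% of all probe sets were called higher and 7.7% lower. At 2 weeks no gene of these lists was called.

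**Figure D4:**
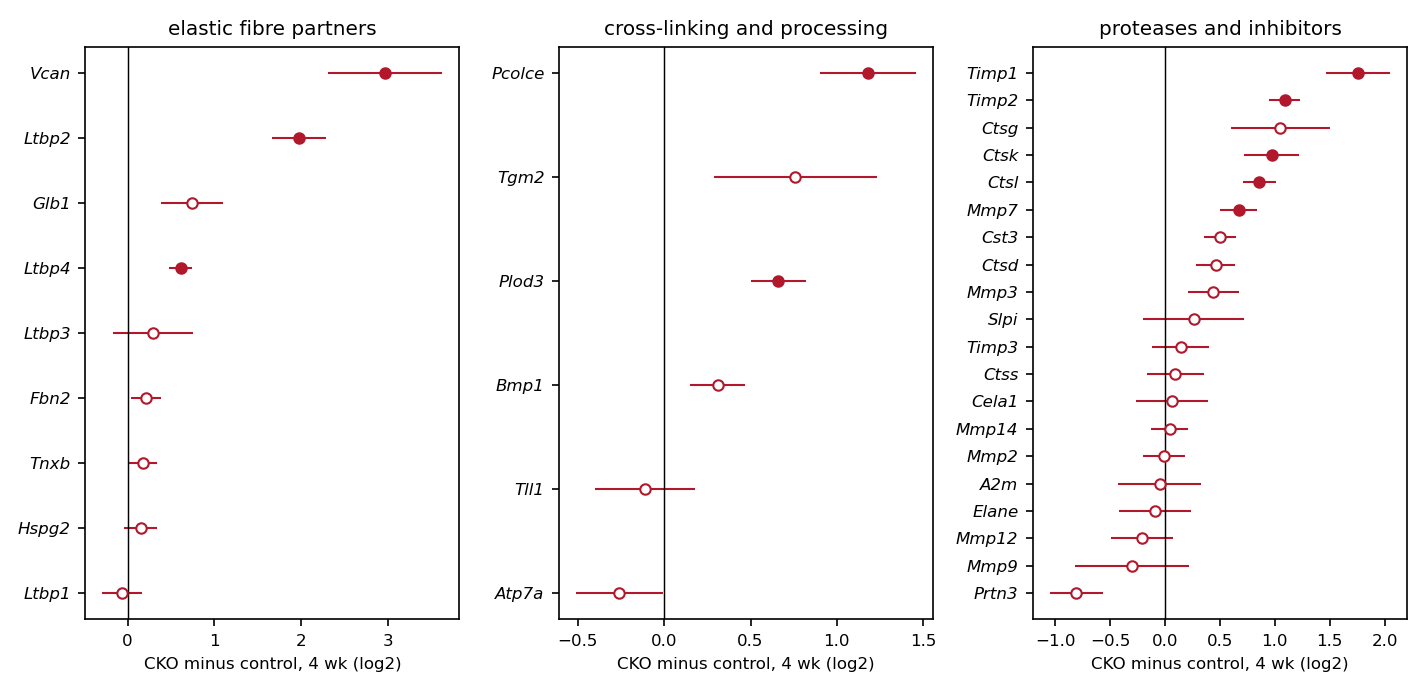
CKO minus control at 4 weeks (difference in log2(intensity + 16), bars are standard errors) for 9 elastic fibre partners, 6 cross-linking and processing genes and 20 proteases and inhibitors. Filled symbols passed the test, and all 10 of them lie above 0, led by Vcan at 2.97.

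Markers of fibroblasts, which make elastic fibre proteins, moved with the set at 4 weeks. Of 10 fibroblast markers 7 rose at 4 weeks and none fell, with a median of 0.75, among them Pdgfra (0.89 ± 0.23, limma adjusted p = 0.0291), Tcf21 (0.74 ± 0.19, adjusted p = 0.0329) and the collagen gene Col1a2 (2.09 ± 0.35, adjusted p = 0.00216). Their summed intensity was 22800 to 26500 in CKO hearts and 13320 to 14440 in control hearts. No fibroblast marker was at the lowest value on any array. Of 7 smooth muscle and pericyte markers 2 rose, Acta2 (1.01 ± 0.19, limma adjusted p = 0.00575) and Cnn1 (1.45 ± 0.33, adjusted p = 0.0158). The others did not pass, namely Tagln (0.85 ± 0.33), Pdgfrb (0.29 ± 0.35), Rgs5 (0.09 ± 0.12), Smtn (-0.28 ± 0.26) and Myh11 (-0.29 ± 0.18). Their summed intensity was 5723 to 9342 in CKO hearts and 4325 to 5102 in control hearts, with Acta2 the brightest (mean intensity 3521). Of 7 cardiac muscle markers 4 fell, with a summed intensity of 47150 to 49100 in CKO hearts and 57940 to 59540 in control hearts. Of 9 endothelial markers 1 rose, and no macrophage (8 measured), lymphocyte (6), epicardial (4), erythroid (3), skeletal muscle (5) or lung (4) marker was called at 4 weeks. At 2 weeks no marker of any of these lists was called, and fibroblast markers summed to 16150 to 21500 in CKO hearts and 14460 to 17710 in control hearts. Between 4 and 2 weeks in control hearts, where Eln fell, the fibroblast markers had a median difference of -0.57. In that comparison 1 was called higher, where 0.282% of all probe sets were, and 1 lower, where 0.0564% were. The part of these shifts in the results for elastic fibre genes was not tested.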

How the data were processed

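Total RNA of mouse heart was measured on 15 one-colour arrays, after Trizol extraction, column purification and biotin labelling, per the labels' protocols. The deposited values are linear intensities, 1 per probe set and array, and no source used here names the software, background correction or scaling behind them (not given in the sources used here). Array medians differed by at most 1.248 times, so the deposited scaling was kept. By the annotation, 10833 probe sets had a single symbol, 396 had more than 1 and 1193 had no symbol. Of the single-symbol probe sets 10817 were updated by gene ID (GRCm38.p6 table, names only).

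All 12422 probe sets were fitted as log2(intensity + 16) by limma (version 3.58.1, under R 4.3.3). Each group had its own coefficient, eBayes used a trend with intensity, tests were two-sided, and p-values were adjusted by Benjamini and Hochberg's method. This scale understates changes of dim probe sets. The brightest probe set on average represents a gene. The number of arrays limits the precision. The fit was tested on simulated data with independent noise and no array sets, so that test does not cover their effect. Alternatives changed the scaling, pseudocount, filter on dim probe sets, blocks (array set, inferred sex, replicate number) and arrays left out.

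All 9 members are named, and up to 4 genes with the smallest p at 4 weeks were taken from each pathway list. Ctsk, Ctsd, Cst3, Prtn3, Fbn2, Mmp12, Elane and the markers were named after their values were seen. Members, lists and alternatives were chosen with earlier results of these data known.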

Additional observations from a re-analysis of the deposited data

Results flagged for a closer look

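By the limma test, the CKO effect differed between ages for the brightest probe set of 4 genes. The other probe sets of Eln, Lox and Mfap5 did not pass that test. At the brightest probe set the effect was larger at 4 than at 2 weeks by 2.98 (log2) for Eln, 3.85 for Lox, 2.28 for Mfap5 and 1.48 for Fbln2. All 5 CKO arrays at 4 weeks lay above all 3 control arrays for these genes, and the groups overlapped at 2 weeks. In the 30 tests of the CKO groups for an array far from the others (15 probe sets, 2 groups), no array stood apart. The control groups of 3 arrays were not tested in this way. Each CKO group held arrays of both array sets, and a split between sets can hide a lone array, so no conclusion is drawn.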

How the results depend on the processing

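At 4 weeks every alternative left the 6 called genes positive. The Loxl1 call was lost under median scaling, with the replicate block (1.39, adjusted p = 0.0962) and without control 4 wk replicate 2 (1.25, adjusted p = 0.0868). Fbln1 turned to -0.06 within array set 1. Over all probe sets 779 were called at 4 weeks (479 higher, 300 lower), 775 with quantile normalization (365 higher, 410 lower), 2760 when array set was blocked, 2015 within array set 2, 2703 with that block and quantile normalization, 2337 with array set and inferred sex as blocks, and 342 to 787 without single arrays (342 without control 4 wk replicate 2 and 403 without replicate 3). At 2 weeks 1 was called, 7 under each of those 3 blocked fits, 0 within set 1 and 5 within set 2, and 1 to 2 without single arrays (2 without control 4 wk replicate 1).

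For the difference between ages, 4 member and 66 of all probe sets were called. These were 0 and 12 with median scaling, 9 and 683 with the array set block, 2 and 23 within set 1, 9 and 337 within set 2, 9 and 764 with the block and quantile normalization, 9 and 499 with sex added, and 1 to 7 and 17 to 103 without single arrays, from 7 and 103 without control 4 wk replicate 1 to 1 and 17 without control 2 wk replicate 1. Of the members, 1 was also left without control 4 wk replicate 2 or 3, CKO 4 wk replicate 3, control 2 wk replicate 2 or CKO 2 wk replicate 3, and 2 without CKO 4 wk replicate 1, 4 or 5 or CKO 2 wk replicate 4. For age in control hearts 1 and 42 were called (35 higher and 7 lower of all, 44 and 18 with quantile normalization). These were 0 and 26 with median scaling, 6 and 369 with the block, 0 and 4 within set 1, 8 and 331 within set 2, 6 and 407 with the block and quantile normalization, 7 and 464 with sex added, and 0 to 3 and 8 to 70 without single arrays (3 and 70 without control 4 wk replicate 1, and no member without control 4 wk replicate 2 or 3 or control 2 wk replicate 1 or 2). For age in CKO hearts 4 and 414 were called. These were 2 members with median scaling, 7 and 1771 with the block, 8 and 905 within set 1, 1141 of all within set 2, 7 and 1858 with the block and quantile normalization, 1520 of all with sex added, and 2 to 5 and 253 to 443 without single arrays (2 members without CKO 4 wk replicate 3, 4 or 5 or CKO 2 wk replicate 3 or 4). The cause of these shifts was not tested.

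With the replicate block (the title's sample number), 7 member and 372 of all probe sets were called at 4 weeks, 0 and 4 for the difference between ages, 0 and 14 for age in control hearts, and 1 and 189 for age in CKO hearts. The call of Eln with age in control hearts was then lost (-2.33, adjusted p = 0.068). The deviations of same-numbered arrays correlated at 0.79, -0.52 and 0.47 at 4 weeks and at 0.66, 0.59 and 0.85 at 2 weeks. Pairs with different numbers in the same array set correlated at 0.35 to 0.78, and pairs from different array sets at -0.79 to -0.52. The only negative same-number pair spanned both sets, so pairing by number could not be told apart from the array set, and the block was not made the main analysis.

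Of 39 sign changes 30 were in CKO minus control at 2 weeks, where leaving out single arrays gave -0.42 to 0.11 for Eln, -0.12 to 0.17 for Fbln1, -0.30 to 0.08 for Fbln2, -0.42 to 0.17 for Lox, -0.13 to 0.28 for Loxl1, -0.12 to 0.37 for Mfap2, -0.21 to 0.81 for Mfap4 and -0.17 to 0.25 for Mfap5. Within array sets, Eln was 0.16 (set 2), Fbln2 0.35 (set 1), Lox 0.42 (set 2) and Mfap2 -0.10 (set 1). Fbln2 was 0.00 with either block of the array set, and Lox was 0.02 with it and 0.11 with sex added. With age, Fbln2 in control hearts was 0.20 and Mfap2 in CKO hearts 0.20 within set 1, and single arrays gave -0.09 to 0.29 for Fbln1 in control and -0.30 to 0.19 for Mfap2 in CKO hearts. At 4 weeks Mfap4 exceeded Lox with 1 added to the intensity (5.35 and 4.14) but not with 64 added (2.93 and 2.99). Precision is limited by the 3 arrays of each control group.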
